A study of Mus musculus with 12 samples.

Results

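DNA replication and S phase genes were followed in PP B cells, the B cells of Peyer's patches (PP, the lymphoid follicles of the small intestine), after experimental stroke. The members were the rows of the gene table whose gene name is on a list of 44 replication genes, and all 44 were found, 1 row each, among 36175 genes. Bulk RNA-seq had been performed on 12 male C57BL/6JHsd wild-type mice aged 10 to 12 weeks, 6 sham controls and 6 stroke mice, examined 18 h after the operation. In stroke mice a filament closed the middle cerebral artery for a limited time, and in sham controls the filament was put into the common carotid artery and taken out at once. Both groups received buprenorphine and carprofen. B cells were enriched from PP cell suspensions by negative magnetic selection and then with CD45 nanobeads, so the libraries hold the B cells that were still present in the PP at that time. The first step leaves small amounts of epithelial and endothelial cells, and the second was added to enrich the B cells further. The labels tell the mice apart by a number from 1 to 6 per group and by a library number that runs through sham and then stroke. The paper states that its data combine several independent experiments, but the labels do not say which mouse belonged to which. Differences between experiments therefore cannot be told apart here, and p-values measure the spread between these 12 mice.

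DNA is copied once per cell division, in S phase. Origins are licensed when ORC, CDC6 and CDT1 load the ring-shaped MCM helicase onto DNA, and geminin (Gmnn) then blocks further loading. CDC45 and GINS turn the ring into an active helicase, polymerase alpha-primase lays primers, and polymerases delta and epsilon extend them while held by the sliding clamp PCNA. Most of these genes are transcribed at the G1 to S transition by E2F factors. In PP, which are stimulated without pause by gut antigens, B cells divide mainly in germinal centres, whereas naive follicular B cells are resting.

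Promoter sequence was a feature that the choice of members did not use. Of the 44 members, 36 had a promoter in the RefSeq table (GRCm38.p6), 300-base windows from 250 bases before to 50 after the gene start. Those without an entry were Gmnn, Rfc2, Gins1, Mcm4, Gins2, Prim2, Gins4 and Pole. An E2F-type motif (TTTCCCGC, TTTGGCGC, TTTCGCGC or TTTGCCGC, on either strand, with overlapping matches counted) was found in 14 of the 36 genes, which is 38.9%. Among all 27025 genes of that table the share was 2.61%, and among those that were also tested here it was 4.80%. The 14 genes were Orc1, Cdc6, Cdt1, Mcm3, Mcm5, Mcm6, Mcm7, Gins3, Pola1, Pold1, Pole2, Rfc3, Lig1 and Uhrf1. The windows of Mcm5, Mcm6 and Pola1 are shown because their matches lie upstream of the start in both RefSeq and GENCODE, with the E2F-type letters in capitals:
Mcm5 (chr8:75109341-75109382, plus strand): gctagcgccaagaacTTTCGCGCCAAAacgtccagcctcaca
Mcm6 (chr1:128359730-128359830, minus strand): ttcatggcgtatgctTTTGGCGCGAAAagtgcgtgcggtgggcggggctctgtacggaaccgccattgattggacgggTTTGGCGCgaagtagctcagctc
Pola1 (chrX:93632271-93632308, minus strand): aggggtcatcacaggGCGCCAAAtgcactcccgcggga

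In Mcm5 and Mcm6 a match on each strand overlapped to form a single run of 12 capitals, and Mcm6 held a further match closer to the start. The CCAAT box, the motif of the factor NF-Y, was present on either strand in 23 of the 36 members (63.9%), against 41.1% of all genes of the table and 43.5% of those tested. It is shown for Mcm3, with 3 matches, and for both subunits of ribonucleotide reductase, Rrm1 and Rrm2, whose levels are compared further on, with CCAAT or its reverse complement in capitals:
Mcm3 (chr1:20820325-20820444, minus strand): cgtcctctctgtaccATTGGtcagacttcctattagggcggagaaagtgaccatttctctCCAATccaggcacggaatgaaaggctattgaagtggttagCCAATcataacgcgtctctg
Rrm1 (chr7:102441589-102441669, plus strand): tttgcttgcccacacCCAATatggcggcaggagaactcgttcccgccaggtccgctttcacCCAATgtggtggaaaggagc
Rrm2 (chr12:24708189-24708223, plus strand): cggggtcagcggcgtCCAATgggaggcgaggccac

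A match describes letters in these windows and is not evidence that a factor binds there.

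By GENCODE M21 (GRCm38), the source of all gene positions given here, the members lay on 15 chromosomes. Starts of protein-coding genes on the opposite strand were counted from 1000 bases upstream to 200 bases downstream of a gene's start. Of the 44 members, 9 had such a divergent start (20.5%), against 12.7% of 11380 protein-coding genes tested. Among the 9 members were Orc1 with Prpf38a at 87 bases, Orc6 with Vps35 at 170 bases and Mcm4 with Prkdc at 466 bases. Transcript sequence is not unique for every member. In the GENCODE M21 transcripts, 79.6% of the 31-base words of Fen1 also occur in other genes, chiefly Gm10143, as do 66.2% of Gins2, chiefly in Gse1, and 51.0% of Chaf1a, chiefly in Ubxn6. How reads were divided in such genes can set their values, so Fen1, Gins2 and Chaf1a are given as uncertain. In all, 14 members shared over 10% of their words with other genes, including Mcm7 (33.4%), Uhrf1 (24.2%) and Pcna (23.3%), whereas 6 shared none.

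The deposited values are the authors' normalized TPM, a level per transcript length, and they summed to between 559570 and 1404340 per mouse. Read counts are not among the values, so depth is unknown. B cell markers were high in every mouse, with the sum of 10 genes at 2694 to 3359 in sham and 1920 to 3060 in stroke, the lowest in stroke mouse 5. Several libraries stood apart. Epithelial markers (10 genes) summed to 1587 and 1437 in sham controls 1 and 2 and to between 34.3 and 722 in the other mice, sham control 6 had the lowest total and the lowest value for 27.2% of genes tested, and stroke mouse 6 had 30060 genes above 0 against 20626 to 23947 elsewhere. T cell markers summed to 79.9 to 140 in sham and 65.4 to 174 in stroke, and plasma cell markers to 325 to 1509 and 382 to 1113. Monocyte and macrophage markers reached 342 in sham and 192 in stroke. Endothelial markers summed to 83.8 to 108 and 91.1 to 110, with Kdr, Tek and Cldn5 under 1 in every mouse, neutrophil markers to at most 6.71 and 10.2, with S100a8 and Ly6g under 1, and erythroid markers to at most 18.4 and 33.3.

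Every member was expressed in every mouse, with values from 3.28 (Orc1 in stroke mouse 1) to 237 (Cdc45 in stroke mice 5 and 6), so all 44 passed the filter on low values. Cdc45 had the highest mean level over the 12 mice (116 ± 59.5, SD), followed by the large clamp loader subunit Rfc1 (105 ± 22.5), the single-strand binding protein Rpa1 (94.7 ± 18.1) and Mcm7 (93.9 ± 17.9). The lowest were Orc1 (6.64 ± 2.07), the GINS subunit Gins2 (6.46 ± 1.46) and the loader Cdc6 (6.41 ± 1.75). In 42 of the 43 pairs of neighbours in this order the means differed by less than the smaller SD of the pair, the exception being Gins1 (10.9 ± 1.75) and Chaf1b (8.62 ± 2.61).

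Stroke mice and sham controls did not differ detectably in any of the 44 genes. With limma across 12590 genes, 0 of the 44 had an unadjusted p under 0.05 in either direction, where 6.12% of all genes tested did (4.42% higher and 1.69% lower in stroke). This split moved with the scaling, from 557 genes higher and 213 lower to 378 and 327 after quantile normalization and 348 and 70 after each mouse was rescaled to the same total. No member had an adjusted p under 0.05, as for all genes tested (0%), and the smallest adjusted p of a member was 0.793. The groups overlapped in all 44 members, while they did not overlap in 0.437% of genes tested. Fold changes are stroke minus sham on the log2(value + 0.5) scale. Their median over the members was 0.057, against 0.0069 over all genes tested, with 27 members above 0 and 17 below.

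The 95% interval of every member contained 0. For 43 members it lay within -1 and 1, that is within a 2-fold change either way, and for 17 it lay within -0.5 and 0.5. The exception was Cdc45, whose interval reached 1.14. In bulk RNA, a smaller share of dividing cells and less RNA per cell cannot be told apart.

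**Figure D1:**
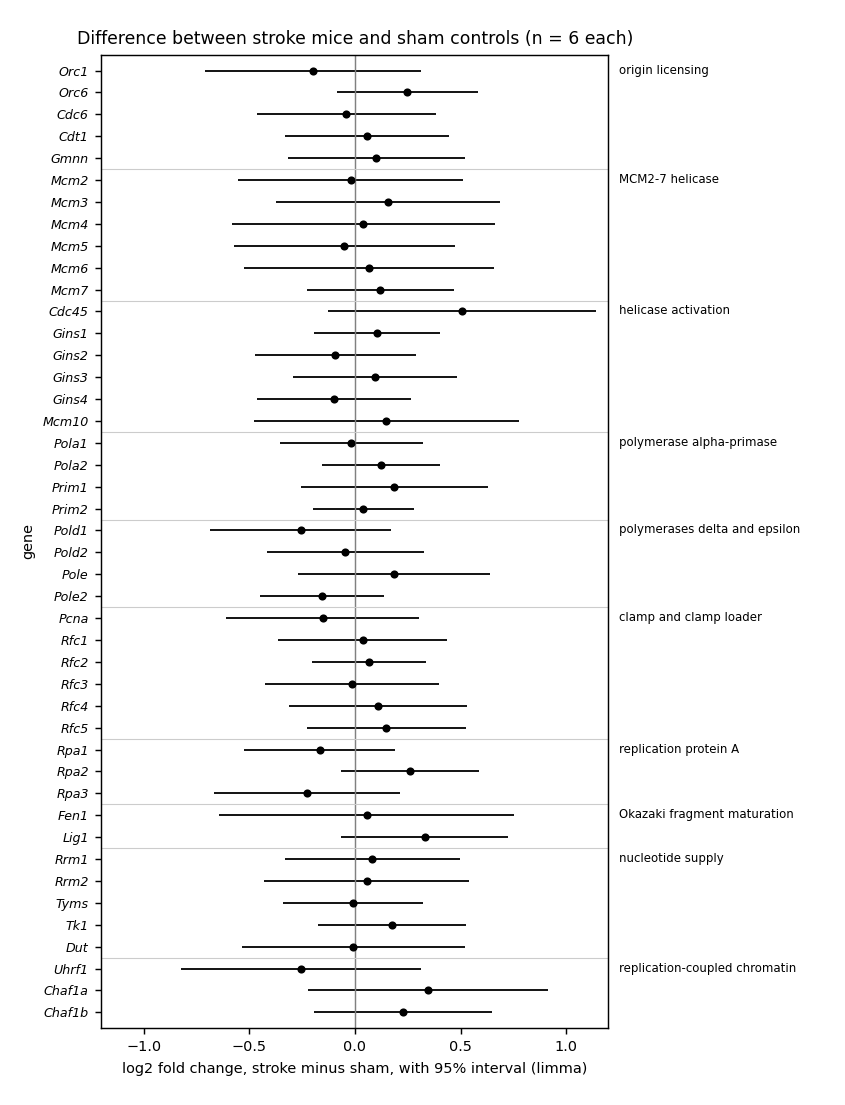
Log2 fold change (stroke minus sham, x axis) of each of the 44 replication genes, grouped by role, with points for the limma estimate and bars for its 95% interval, 6 mice per group. All bars cross 0, and the Cdc45 bar reaches furthest to the right, to 1.14.

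Origin licensing genes had a median fold change of 0.057. Of these, Orc6, a subunit of the origin recognition complex, was at 20.7 ± 3.61 in sham and 24.9 ± 5.13 in stroke (SD, n = 6 each; log2 fold change 0.25, limma adjusted p = 0.793), and Orc1, its ATPase subunit, at 7.13 ± 2.29 and 6.14 ± 1.88. The helicase loader Cdc6 was at 6.52 ± 1.88 and 6.30 ± 1.78.

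Cdt1 (ENSMUSG00000006585, chr8:122568015-122573554, plus strand) and its inhibitor Gmnn (ENSMUSG00000006715, chr13:24751845-24761923, minus strand) are a pair with opposite timing, since CDT1 protein is present in G1 and geminin from S phase on. Cdt1 ranged from 16.8 in sham control 6 to 30.9 in sham (median 28.6) and from 23.6 to 42.8 in stroke (median 25.8), with a log2 fold change of 0.06 (95% interval -0.33 to 0.44). Gmnn ranged from 18.4 to 38.1 in sham (median 20.98) and from 21.4 to 36.5 in stroke (median 23.6), with 0.10 (-0.32 to 0.52). In both genes the ranges of the groups overlapped. The log2 ratio of Cdt1 to Gmnn, which does not depend on how a mouse is scaled, was 0.20 ± 0.47 in sham and 0.15 ± 0.43 in stroke. It was lowest in stroke mouse 3 (-0.51) and sham control 5 (-0.47) and highest in stroke mouse 5 (0.77), so that the spread lay within the groups and not between them.

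The 6 subunits of the MCM helicase varied together from mouse to mouse, with the groups overlapping in each. Their fold changes were 0.16 for Mcm3, 0.12 for Mcm7, 0.07 for Mcm6, 0.04 for Mcm4, -0.02 for Mcm2 and -0.05 for Mcm5. Mcm6 was at 69.2 ± 27.3 in sham and 68.1 ± 15.9 in stroke. All 6 had their lowest value in sham control 6, where Mcm6 was at 27.7 and Mcm4 at 13.9. For 5 of the 6, all but Mcm2, stroke mouse 3 was the highest, with Mcm6 at 99.6 and Mcm7 at 130. Relative to all genes tested, the mean log2 level of the 6 genes was 0.879 in sham control 6 and between 1.29 and 2.18 in the other 11 mice.

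Among genes that turn the loaded MCM ring into a moving helicase, Cdc45 (ENSMUSG00000000028, chr16:18780447-18811987, minus strand) had the largest fold change of all members. Its values in sham controls 1 to 6 were 83.0, 80.5, 66.3, 81.9, 96.1 and 143, and in stroke mice 1 to 6 they were 90.3, 96.9, 83.3, 100.5, 237 and 237. Stroke mice 5 and 6 and sham control 6 stood above the rest, and the other 4 stroke mice lay within the sham range. The means were 91.9 ± 27.0 and 141 ± 74.9, with a log2 fold change of 0.51 (95% interval -0.13 to 1.14, adjusted p = 0.793, limma). With the mouse number as a block, a grouping that the labels do not explain, the unadjusted p was 0.015 (adjusted p = 0.470, limma). In that fit 9.32% of all genes tested had an unadjusted p under 0.05. Without sham control 6 the fold change was 0.64 (adjusted p = 0.297, limma) and passed the unadjusted threshold of 0.05. In that fit 16.6% of all genes tested passed it. Without stroke mouse 5 or stroke mouse 6 the fold change was 0.32. The sum over 2002 olfactory and vomeronasal receptor genes, which B cells are not known for, was highest in stroke mouse 6 (3275) and, among sham controls, in sham control 6 (2189, against 1732 to 2084 in the others). It was 2581 in stroke mouse 5, but also 2586 in stroke mouse 3, 2408 in stroke mouse 4 and 2250 in stroke mouse 1, in which Cdc45 lay within the sham range. The part of this signal in the Cdc45 values was not tested.

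The GINS subunits are the partners of CDC45. Gins1 was at 10.4 ± 1.68 in sham and 11.3 ± 1.87 in stroke (0.11), Gins3 at 12.0 ± 2.32 and 13.0 ± 3.22 (0.09), Gins4 at 21.8 ± 5.54 and 19.8 ± 2.35 (-0.10) and Gins2 at 6.65 ± 1.32 and 6.27 ± 1.70 (-0.09). Gins3 shared its 3 highest mice with Cdc45, at 17.0 in stroke mouse 5, 16.1 in sham control 6 and 15.9 in stroke mouse 6, as did Tk1, and these 3 of 44 members (6.82%) were a share near that of all genes tested (4.29%). Mcm10, which helps to start the helicase, was among the more variable members, from 7.54 to 24.2 over the 12 mice, with a fold change of 0.15.

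Polymerase alpha-primase makes the RNA-DNA primers. Its genes differed little between the groups, with Prim1 at 18.8 ± 6.29 and 21.1 ± 5.15 (0.19), Pola2 at 40.7 ± 5.91 and 44.4 ± 6.52 (0.12), Prim2 at 22.6 ± 2.57 and 23.3 ± 2.38 (0.04) and Pola1 at 22.1 ± 4.65 and 21.8 ± 3.74 (-0.02). Prim2 was the steadiest of all members, with a within-group SD of 0.15 on the log2 scale and a fold of 1.39 between its highest and lowest mouse.

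For the replicative polymerases the median fold change was -0.10, and the members with the smallest p among those lower in stroke were found here. Pold1, the catalytic subunit of polymerase delta (ENSMUSG00000038644, chr7:44532746-44548849, minus strand), ranged from 76.6 to 106 in sham (median 93.3) and from 39.4 to 96.9 in stroke (median 87.9), a log2 fold change of -0.26 (95% interval -0.68 to 0.17, adjusted p = 0.826, limma). The low end was a single animal, stroke mouse 5, and the next lowest stroke mouse was at 73.8. Without stroke mouse 5 the fold change was -0.07. Pole2, a subunit of polymerase epsilon (ENSMUSG00000020974, chr12:69201773-69228195, minus strand), ranged from 13.6 to 20.7 in sham (median 18.9) and from 12.8 to 19.7 in stroke (median 15.9), a log2 fold change of -0.16 (-0.45 to 0.14, adjusted p = 0.839, limma). Leaving out 1 mouse at a time moved it from -0.23 to -0.10. In both genes 1 of 6 stroke mice lay above the sham mean. Pole, the catalytic subunit of epsilon, was at 21.8 ± 5.63 and 24.9 ± 6.61 (0.19), and Pold2 at 13.9 ± 4.12 and 13.2 ± 2.29 (-0.04).

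PCNA, the ring that tethers the polymerases, is a standard mark of cycling cells. Pcna (ENSMUSG00000027342, chr2:132249162-132253314, minus strand) ranged from 52.1 to 123 in sham (median 95.5) and from 62.3 to 123 in stroke (median 77.6), a log2 fold change of -0.15 (95% interval -0.61 to 0.30, adjusted p = 0.889, limma). Its highest values in the 2 groups, in sham control 5 and stroke mouse 3, were nearly equal, and 1 of 6 stroke mice lay above the sham mean. The fold change was -0.31 without sham control 6 and -0.07 without sham control 5. The 5 subunits of the clamp loader, which opens the ring, had fold changes of 0.15 (Rfc5), 0.11 (Rfc4), 0.07 (Rfc2), 0.04 (Rfc1) and -0.01 (Rfc3).

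The 3 subunits of replication protein A, which coats single-stranded DNA, had fold changes of both signs. Rpa2 was at 25.6 ± 4.43 in sham and 30.9 ± 6.20 in stroke (0.26, limma adjusted p = 0.793), with 5 of 6 stroke mice above the sham mean. Rpa1 was at 100.8 ± 20.7 and 88.7 ± 14.3 (-0.17), and Rpa3 at 19.7 ± 6.18 and 16.3 ± 3.01 (-0.23), each with 1 of 6 stroke mice above that mean. The intervals of all 3 contained 0, and the differences between the subunits were not tested. Without sham control 6, in which Rpa1 was at 62.8, the fold change of Rpa1 was -0.30 (adjusted p = 0.288, limma), past the unadjusted threshold. In that fit 16.6% of all genes tested were past it.

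Of the enzymes that finish Okazaki fragments, the short pieces of the lagging strand, Lig1 had the smallest p of all members. This DNA ligase (ENSMUSG00000056394, chr7:13277283-13311433, plus strand) ranged from 49.6 to 98.4 in sham (median 65.7) and from 67.2 to 118 in stroke (median 86.3). The means were 70.8 ± 19.2 and 87.8 ± 17.2, a log2 fold change of 0.33 (95% interval -0.07 to 0.73, adjusted p = 0.793, limma), and 5 of 6 stroke mice lay above the sham mean. Without sham control 5 the fold change was 0.43 (adjusted p = 0.807, limma), also past the unadjusted threshold, as were 5.79% of all genes tested in that fit. The flap endonuclease Fen1 (ENSMUSG00000024742, chr19:10199132-10204169, minus strand), uncertain because of its shared sequence, ranged from 8.14 to 42.7 in sham (median 29.0) and from 20.1 to 40.2 in stroke (median 25.0). It was the most variable member, with a 5.24-fold range and a within-group SD of 0.63 on the log2 scale, and sham control 6 was its low end. Its fold change was 0.06 (95% interval -0.64 to 0.75), and -0.26 without sham control 6.

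**Figure D2:**
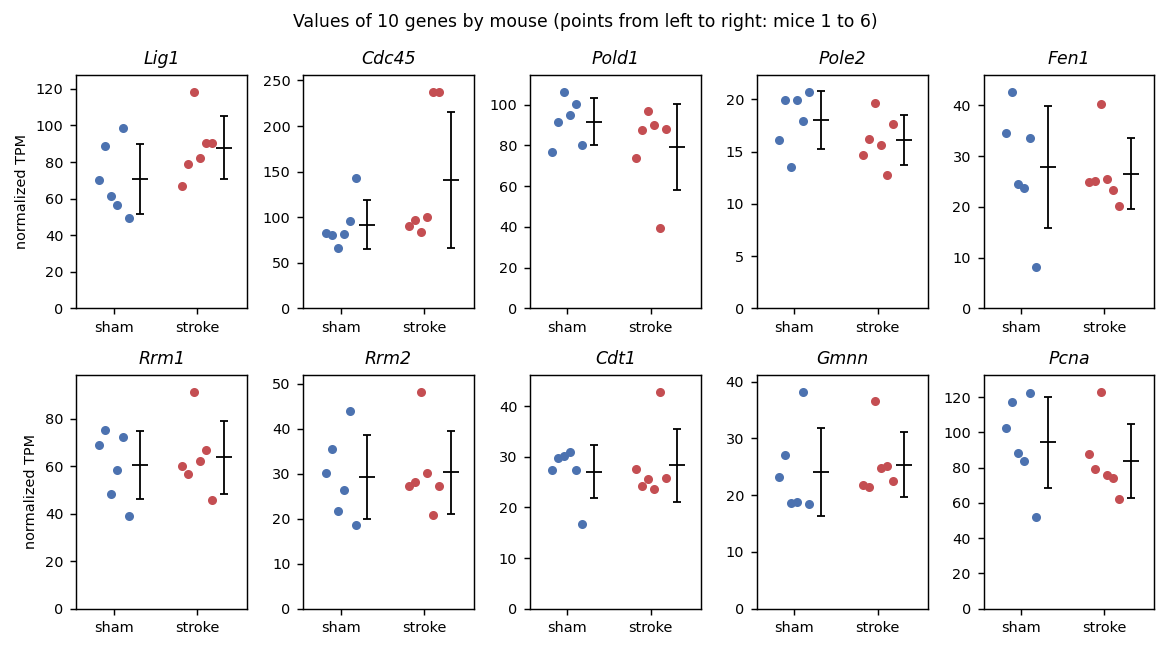
Values (normalized TPM, y axes from 0) of 10 replication genes in each of the 6 sham controls and 6 stroke mice, with points for mice and bars for the mean ± SD. Cdc45 is high in 2 stroke mice, Pold1 is low in 1 stroke mouse and Fen1 in 1 sham control, and the groups overlap in every panel.

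Deoxynucleotides are supplied by ribonucleotide reductase, whose large subunit is Rrm1 (ENSMUSG00000030978, chr7:102441695-102469771, plus strand) and whose S phase small subunit is Rrm2 (ENSMUSG00000020649, chr12:24708241-24714146, plus strand). Rrm1 ranged from 39.1 to 75.1 in sham (median 63.9) and from 45.7 to 91.3 in stroke (median 61.2), with a log2 fold change of 0.08 (95% interval -0.33 to 0.50). Rrm2 ranged from 18.6 to 43.9 in sham (median 28.3) and from 20.9 to 48.2 in stroke (median 27.8), with 0.06 (-0.43 to 0.54). The groups overlapped over most of their range in both genes. Per mouse, the log2 ratio of Rrm2 to Rrm1 was -1.06 ± 0.17 in sham and -1.09 ± 0.32 in stroke, highest in sham control 5 (-0.72) and lowest in stroke mouse 5 (-1.68). Thymidylate synthase (Tyms, -0.01) and dUTPase (Dut, -0.01) had fold changes close to 0, and thymidine kinase (Tk1) was at 74.5 ± 16.6 and 83.3 ± 12.6 (0.17).

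Chromatin is carried over to the new strands by the last group of members, which had a median fold change of 0.23. Chaf1a and Chaf1b, subunits of the histone chaperone CAF-1, were at 10.7 ± 5.05 and 13.1 ± 3.82 (0.35, limma adjusted p = 0.821) and at 7.76 ± 1.36 and 9.48 ± 3.37 (0.23, adjusted p = 0.839). Uhrf1, which directs maintenance DNA methylation, was at 47.1 ± 19.4 and 38.8 ± 12.9 (-0.26, adjusted p = 0.859), with 81.3 in sham control 5.

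The median within-group SD of the members was 0.35 on the log2 scale, against 0.31 over all genes tested, with 29 members above that value and 15 below. The median SD was 0.29 over the 8378 genes tested with a mean level between the 5th and 95th percentile of the members. Between the highest and the lowest mouse the median member differed 2.26-fold. Much of this spread was shared. Sham control 5 and stroke mouse 3 were both among the 3 highest mice for 28 of the 44 members (63.6%), against 5.79% of genes tested. This measure was chosen after the values were seen, and it is a description with no test. Stroke mouse 3 was the highest mouse for 19 members (43.2%, against 6.54% of genes tested), and sham control 5 for 6 (13.6% against 4.32%). At the other end, sham control 6 was the lowest for 18 members (40.9% against 27.2%) and stroke mouse 1 for 8 (18.2% against 4.32%).

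**Figure D3:**
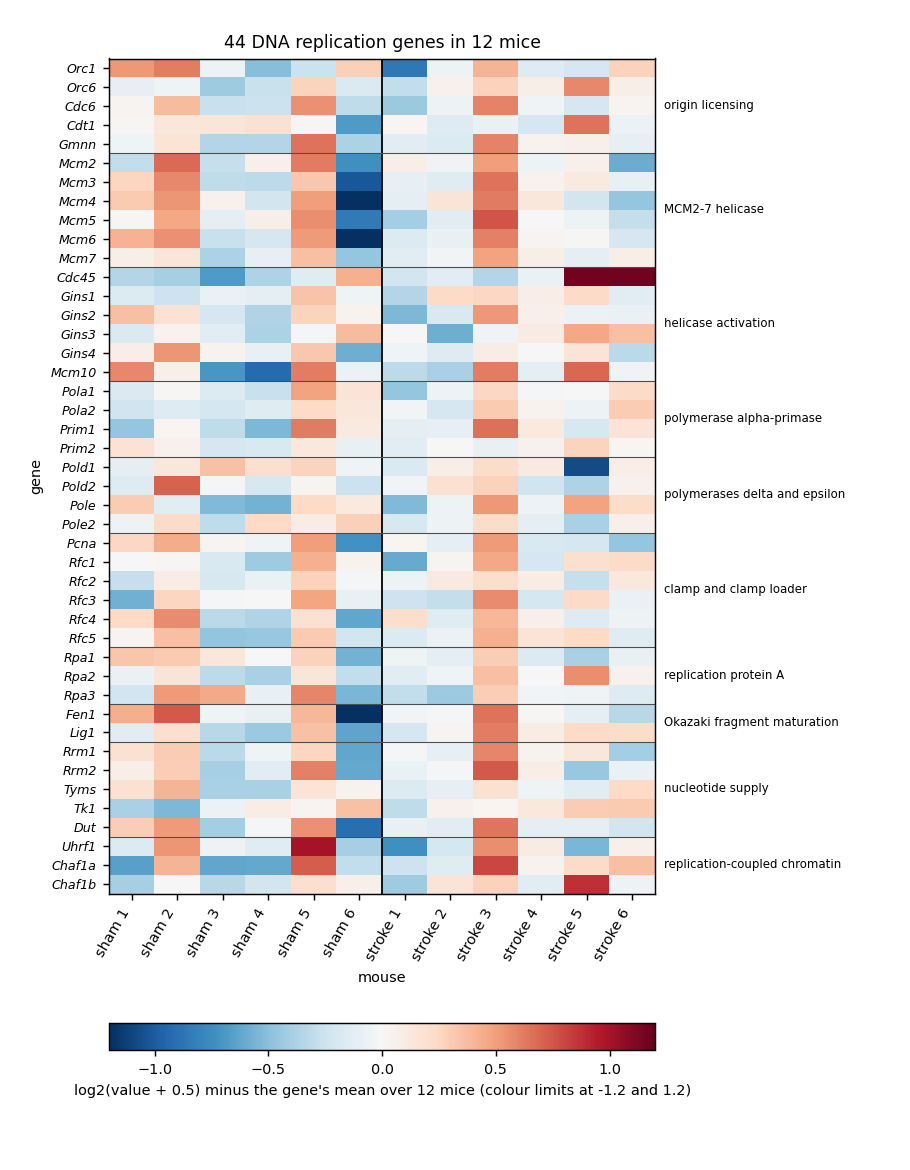
Level of each of the 44 replication genes (rows, grouped by role) in each of the 12 mice (columns), as log2(value + 0.5) minus the gene's mean over all mice, with colours limited to -1.2 and 1.2. The columns of sham control 5 and stroke mouse 3 are high across most rows, and sham control 6 is low in all 6 MCM rows.

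By the measure of the 3 highest mice, the shared pattern ran through whole complexes but not through all members. All 6 MCM genes, 5 of the 6 clamp and clamp loader genes, 3 of the 4 polymerase alpha-primase genes and all 3 chromatin genes had both animals among their 3 highest mice. It was absent from all 3 replication protein A genes and from 3 of the 4 genes of polymerases delta and epsilon. The other members without it were Orc1, Cdt1, Cdc45, Gins3, Gins4, Prim2, Rfc4, Fen1, Tyms and Tk1. Stroke mouse 5 was the highest for 7 members (15.9%, against 18.7% of genes tested), among them Orc6, Cdt1 and Rpa2, and sham control 2 for a further 7 (15.9% against 20.05%).

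In a single value per mouse, the mean log2 level of the 44 genes relative to all genes tested was 0.93 in sham control 5 and 0.98 in stroke mouse 3. The other sham controls lay between 0.41 and 0.75 and the other stroke mice between 0.32 and 0.74. The group means were 0.59 ± 0.21 and 0.63 ± 0.22, a difference of 0.044, far below the spread within either group.

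Germinal centre markers and mitosis genes were highest in the same animals. The 10 germinal centre markers, among them Bcl6, were at 1 or more in every mouse and summed to 581 in sham control 5 and 559 in stroke mouse 3, against 254 to 393 in the other sham controls and 263 to 427 in the other stroke mice. Both animals were among the 3 highest for 10 of these 10 markers and for all 20 mitosis genes, but for 0 of the 10 B cell markers and 0 of the 6 naive follicular markers. The mean level of the mitosis genes relative to all genes tested was 0.61 in sham control 5 and 0.69 in stroke mouse 3 and at most 0.15 elsewhere. No germinal centre marker differed between the groups at an unadjusted p under 0.05 (0 of 10, median log2 fold change 0.13). With the mean of these markers as a covariate, a fit added after the data were seen, the median fold change of the members was -0.025. In this fit Uhrf1 alone of the 44 had an unadjusted p under 0.05 (-0.41, adjusted p = 0.722, limma), where 6.27% of all genes tested did. The part of germinal centre cells in the spread of the members was not tested further.

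**Figure D4:**
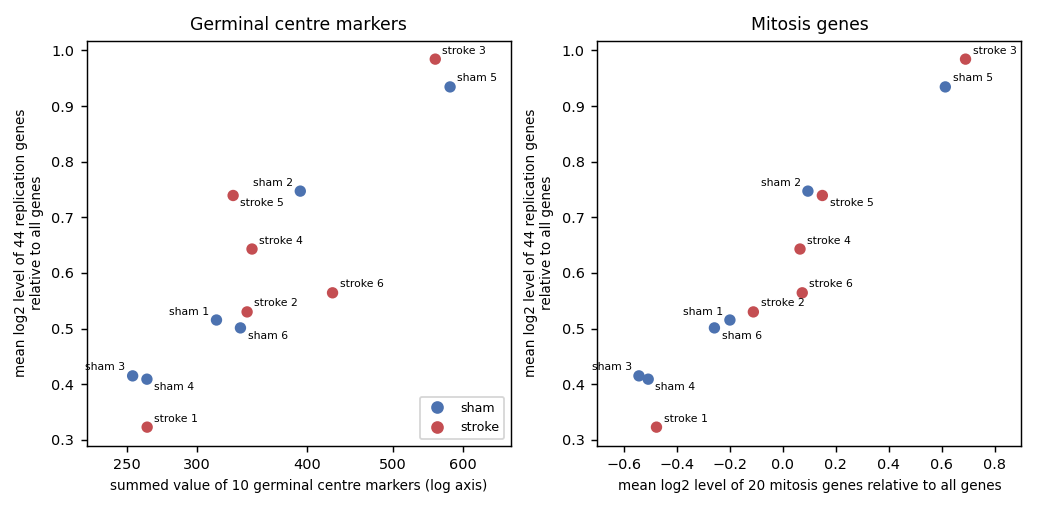
Mean log2 level of the 44 replication genes relative to all genes tested (y axes) in each of the 12 mice, against the summed value of 10 germinal centre markers (left, log axis) and against the mean level of 20 mitosis genes (right). Sham control 5 and stroke mouse 3 lie together at the upper right of both panels, and sham and stroke mice are intermixed below them.

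Naive follicular markers were lower in stroke mice for part of the list. Their sum was 903 to 1297 in sham and 399 to 1159 in stroke, with the lowest value in stroke mouse 5, and all 6 had fold changes below 0. Of these, 2 had an unadjusted p under 0.05, the receptor Fcer2a (CD23, -0.72) and S1pr1 (-0.71), which guides exit from lymphoid tissue, and none passed after adjustment (0 of 6). Over all genes tested, 1.69% were lower at that threshold. Fcer2a was at 48.6 in stroke mouse 5 and at 177 to 234 in the other stroke mice, and without stroke mouse 5 its fold change was -0.36. In that fit it still passed the unadjusted threshold (adjusted p = 0.970, limma), as did 4.68% of all genes tested. Fcer2a passed with 6 of the 12 mice left out in turn, and S1pr1 with all 12. Of the 10 B cell markers, 7 also had fold changes below 0 and 3 above (median -0.15). Cr2 alone of these had an unadjusted p under 0.05 (-0.83, adjusted p = 0.748, limma). It was at 47.1 in stroke mouse 5 and at 169 to 213 in the other stroke mice. The difference between the naive follicular markers and the replication genes was not itself tested.

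Other genes of the replication pathway gave the same picture as the members. Of 49 further replication genes, 0 had an unadjusted p under 0.05, with a median log2 fold change of 0.077 and 34 above 0. The genes with the smallest p were Rnaseh2c, a subunit of ribonuclease H2 at 52.0 ± 9.85 and 38.8 ± 10.7 (-0.45, limma adjusted p = 0.791), and the helicase Recql4 at 3.14 ± 0.63 and 4.13 ± 1.12 (0.33, adjusted p = 0.791). None of the 16 replication checkpoint genes passed either (0 of 16, median 0.042), with the smallest p for Brca2 (0.28, adjusted p = 0.791) and the kinase Chek1 (0.57, adjusted p = 0.791). Chek1 was at 25.0 in stroke mouse 5 and at no more than 10.1 in any other mouse.

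In the E2F-RB axis that drives S phase transcription, 2 of 28 genes passed the unadjusted threshold, in opposite directions, and none after adjustment. This share, 7.14%, was near the 6.12% of all genes tested. Mybl2, a cell cycle transcription factor that is itself an E2F target, ranged from 22.6 to 48.8 in sham (median 32.9) and from 38.8 to 60.3 in stroke (median 48.2), with a log2 fold change of 0.53 (95% interval 0.14 to 0.92, adjusted p = 0.748, limma). All 6 stroke mice lay above the sham mean, and the groups overlapped. E2f3 was at 9.33 ± 1.998 and 6.92 ± 1.61 (-0.42, adjusted p = 0.791, limma), with 0 of 6 stroke mice above the sham mean and the lowest value, 3.84, in stroke mouse 5, without which its fold change was -0.27. E2f3 passed the unadjusted threshold with 3 of the 12 mice left out in turn, and Mybl2 with all 12.

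Mitosis genes mostly had fold changes above 0 but did not pass the test. Of 20 genes, 19 had a fold change above 0, with a median of 0.18, and 0 had an unadjusted p under 0.05. Of all genes tested, 51.4% had a fold change above 0. The median was 0.037 without stroke mouse 3, 0.35 without sham control 5 and 0.029 with the germinal centre covariate. The proliferation marker Mki67 was at 84.8 ± 35.9 in sham and 114 ± 32.0 in stroke (0.46, limma adjusted p = 0.791) and the kinetochore gene Cenpf at 15.6 ± 5.94 and 20.3 ± 4.60 (0.40, adjusted p = 0.791). These genes vary together between mice, so the 19 genes are not independent observations. Without sham control 5 and stroke mouse 3 together, the replication genes had a median fold change of 0.052, again with 0 of 44 at an unadjusted p under 0.05, and without sham controls 1, 2 and 6 the values were 0.060 and 0.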

How the data were processed

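RNA from PP B cells of 6 sham controls and 6 stroke mice was sequenced by the authors. Per the labels and the study's methods, reads were trimmed (Trimmomatic 0.39), assigned to transcripts of GRCm38, Ensembl release 102 (kallisto 0.48.0), and tested with sleuth 0.30.0 in R 4.1.2. The deposited values are a signal that the authors label normalized TPM per gene. Since column totals differ between mice, they were treated as a signal and not as plain TPM, which the planned tests had assumed. Depth is unknown, so no counting error is given.

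Here, log2(value + 0.5) was tested with limma 3.58.1 (R 4.3.3, two-sided) on the 12590 of 36175 genes at 1 or more in every mouse, and p-values were adjusted by Benjamini-Hochberg over all of them. Fold changes on this scale understate changes of low genes. The script was tested on simulated data. Other pseudocounts, filters, scalings, sample weights, an intensity trend, leaving out each mouse and a replicate block were tried. Members and gene lists were chosen with earlier results of these data known. All 44 members are named. Values by mouse are given for the 2 members with the smallest p in each direction, the 2 with the largest spread, Rrm1, Rrm2, Cdt1, Gmnn and Pcna. From each pathway list, genes with an unadjusted p under 0.05, or otherwise the 2 with the smallest p, are named. Gene positions and transcripts are from GENCODE M21 (GRCm38), and promoters from RefSeq (GRCm38.p6).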

Additional observations from a re-analysis of the deposited data

Results flagged for a closer look

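In each group of 6 mice, the highest and lowest values of the 44 members, the member level and both ratios of members were compared with the nearest other mouse by Dixon's test. Of 94 groups, 15 held a mouse that stood apart, where chance gives about 1 in 20. Stroke mouse 3 stood above the other stroke mice in 7 genes, Gmnn at 36.5 (next highest 25.1), Mcm3 at 93.1 (63.9), Mcm5 at 84.6 (49.8), Mcm6 at 99.6 (66.6), Mcm7 at 130 (98.0), Fen1 at 40.2 (25.6) and Dut at 83.9 (50.3). Sham control 6 stood below the other sham controls in Cdt1 at 16.8 (next lowest 27.5), Rpa1 at 62.8 (93.4) and Fen1 at 8.14 (23.8). Stroke mouse 5 stood apart in Cdt1, at 42.8 (27.6), and in Pold1, at 39.4 (73.8). Sham control 5 stood apart in Gins1, at 13.7 (10.3), and in the log2 ratio of Rrm2 to Rrm1, at -0.72 (-1.07). Pold2 was at 22.1 in sham control 2 (13.6). Genes that move together within a mouse share these flags, so they are not 15 independent events.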

How the results depend on the processing

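Under all 25 alternatives, 0 of the 44 members had an adjusted p under 0.05, and Cdc45, Lig1, Pcna, Pold1 and Pole2 kept their direction. The number of members at an unadjusted p under 0.05 was 0 in the report. It was 1 after each mouse was rescaled to the same total (Lig1) and 1 with the germinal centre marker mean as a covariate (Uhrf1). With each mouse left out in turn it ranged from 0 to 2. These were Chaf1a and Lig1 without sham control 5, Cdc45 and Rpa1 without sham control 6, and Orc6 without stroke mouse 1. The share of all genes tested at that threshold was 3.32% after rescaling and 6.27% with the covariate. It was 5.79% without sham control 5, 16.6% without sham control 6 and 7.17% without stroke mouse 1. Same-numbered mice correlated over 0.1 in 4 of 6 pairs, and 4 of the 12 mice correlated best with their own number, so the numbers were not taken as pairs. With the replicate block, 1 member (Cdc45) and 770 higher and 404 lower genes passed unadjusted, without a change in any adjusted call of a member.

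Rescaling moved the median of all genes to 0.127, of members to 0.183 and of checkpoint genes to 0.16. Genes higher and lower at an unadjusted p under 0.05 numbered 557 and 213 of 12590 in the report (6.12%). Of the same 12590 genes, they numbered 866 and 703 with sample weights and 348 and 70 after rescaling. With no filter they numbered 1418 and 350 of 31890, a smaller share (5.54%). Without sham control 6 they numbered 936 and 1162 of 12661 (16.6%). The median of members ranged from -0.036 (without stroke mouse 3) to 0.13 (without sham control 5).

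Small fold changes changed sign. Fen1 was -0.030 and Cdt1 -0.19 with sample weights, and -0.055 and -0.089 without sham controls 1, 2 and 6. With the germinal centre covariate Fen1 was -0.048, Rrm2 -0.058 and Gmnn -0.0045. With each mouse left out in turn, Fen1 ranged from -0.26 to 0.21, Rrm1 from -0.036 to 0.17, Rrm2 from -0.084 to 0.18, Cdt1 from -0.072 to 0.10 and Gmnn from -0.0069 to 0.24. The alternatives chosen after seeing the data were the covariate and leaving out sham controls 1, 2 and 6, or sham control 5 and stroke mouse 3, together. The causes were not tested, and depth is unknown.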
